A study of Homo sapiens with 4 samples.

Results

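The 39 genes described here encode proteins of homologous recombination and of the Fanconi anaemia pathway. They were taken by name from the deposited RNA-seq counts, and all 39 were among its 20913 genes and among the 17863 genes that could be tested. The cells were T98G, an established human glioblastoma line that the labels call astroblastoma, carrying either a vector (2 libraries) or an LGP2 overexpression construct (2 libraries). LGP2, encoded by DHX58, binds double-stranded RNA and belongs to the RIG-I-like receptors, which sense viral RNA. The count columns of the LGP2 group carry the word flag in their names, which may stand for a FLAG tag on the protein. Replicate numbers start at 2 in both groups, with no lower number among the libraries. The labels name no promoter or clone for the construct, and nothing in them says that replicates came from separate cultures. The p-values therefore reflect the spread of these libraries alone, which may be technical. The question named by the series title is how LGP2 acts in glioma development.

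Homologous recombination repairs broken DNA by copying the sister chromatid, which restricts it largely to the S and G2 phases of the cell cycle. The MRE11, RAD50 and NBN complex binds the break and, with RBBP8 (CtIP), starts to cut back one strand, which EXO1, or DNA2 with the BLM helicase, extends. BRCA1 with BARD1, PALB2 and BRCA2 then prepare the single strand for the search for matching DNA, helped by a family of paralogs (RAD51B, RAD51C, RAD51D, XRCC2 and XRCC3). The Fanconi anaemia pathway acts on crosslinks between the strands of DNA. A core complex attaches ubiquitin to FANCD2 and FANCI, and nucleases gathered by SLX4 release the crosslink. In glioblastoma these pathways are studied because radiation and alkylating drugs damage DNA.

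Library totals were 56033379 to 63932198 counts, and DHX58 itself was at 6.20 and 9.40 CPM in the vector libraries and at 542 and 523 CPM in the LGP2 libraries. CPM are read counts scaled to library size, here with trimmed-mean (TMM) factors. Of 9 glioma and mesenchymal cell line markers 8 were in the table. They summed to 10270 and 8106 CPM in the vector libraries against 8512 and 7893 CPM with LGP2. Among them CAV1 (1130 to 1234 CPM) and VIM (2842 to 4027 CPM) were abundant in every library. The astrocyte and neural stem cell genes GFAP and NES of the same list reached at most 0.693 and 0.568 CPM. The other markers of this list are not given one by one. The growth text in the labels speaks of 293T cells, and the 4 markers of that embryonic kidney line were all in the table. They summed to 20.1 and 31.1 CPM in the vector libraries against 25.3 and 23.9 CPM with LGP2, with PAX2 at most at 0.871 CPM and SALL1 the highest at 11.5 to 19.3 CPM. Of 5 microglia and macrophage markers 2 were in the table, at a summed level of 0.576 to 0.724 CPM in the vector libraries against 0.213 to 0.492 CPM with LGP2, with CD14 at 0 in both LGP2 libraries. Of 6 endothelial and neuronal markers 2 were in the table, at summed levels of 8.06 and 12.2 CPM in the vector libraries against 10.1 and 15.0 CPM with LGP2. The part of these cell type markers in the results below was not tested. Lower RNA per cell and fewer cells of a kind cannot be told apart in such bulk libraries.

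No member passed the test of LGP2 overexpression against vector. By edgeR's quasi-likelihood test 0 of the 39 genes had a Benjamini-Hochberg adjusted p under 0.05 in either direction, and the smallest adjusted p was 0.998. Over all tested genes, 3 were called higher (0.0168%) and 0 lower (0%). DESeq2 and limma-voom called 0 members as well, against 0.110% and 0.0336% of the genes tested with each. At an unadjusted p under 0.05, 4 members were higher (NBN, BRIP1, RBBP8 and FANCI), where the background was 3.00% of tested genes, and 0 were lower, where it was 1.46%. The size of these 4 differences depended on which library was left out. Without LGP2 replicate 3 the log2 fold changes of NBN, BRIP1, RBBP8 and FANCI were 0.46, 0.48, 0.52 and 0.33. Without LGP2 replicate 2 they were 1.03, 0.93, 0.83 and 0.36. Without vector replicate 2 they were 0.61, 0.54, 0.45 and 0.26, and without vector replicate 3 they were 0.96, 0.93, 0.96 and 0.44. The 95% intervals of 31 members lay within a 2-fold change in either direction, as did those of 10911 of the 17863 tested genes. The other 8 members were BRIP1, BRCA2, FANCM, RAD50, NBN, RBBP8, BLM and DNA2. These intervals are unadjusted and rest on 2 libraries per group.

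The members lay above 0 more often than below, by small amounts. Of the 39 genes 27 had a positive log2 fold change, with a median of 0.17, while 48.7% of all tested genes were positive, with a median of -0.01. The members' log2 fold changes ran from -0.34 for SLX4 to 0.78 for NBN. In 13 members both LGP2 libraries exceeded both vector libraries in CPM (background 16.7% of tested genes), and in 5 members both were below (background 16.5%). The remaining 21 overlapped.

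The vector libraries often differed from each other by more than the groups did. Vector replicate 3 was above vector replicate 2 in 30 of the 39 members, with a median log2 difference of 0.21, and LGP2 replicate 3 was above LGP2 replicate 2 in 29, with a median of 0.17. In 23 members the log2 difference between the vector libraries was larger than the log2 fold change between the groups, as it was in 63.7% of all tested genes. The medians over all tested genes for the same replicate differences were 0.01 in each group. The members' median log2 fold change was 0.41 without vector replicate 3, 0.27 without LGP2 replicate 2, and 0.02 without vector replicate 2 or without LGP2 replicate 3.

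**Figure D1:**
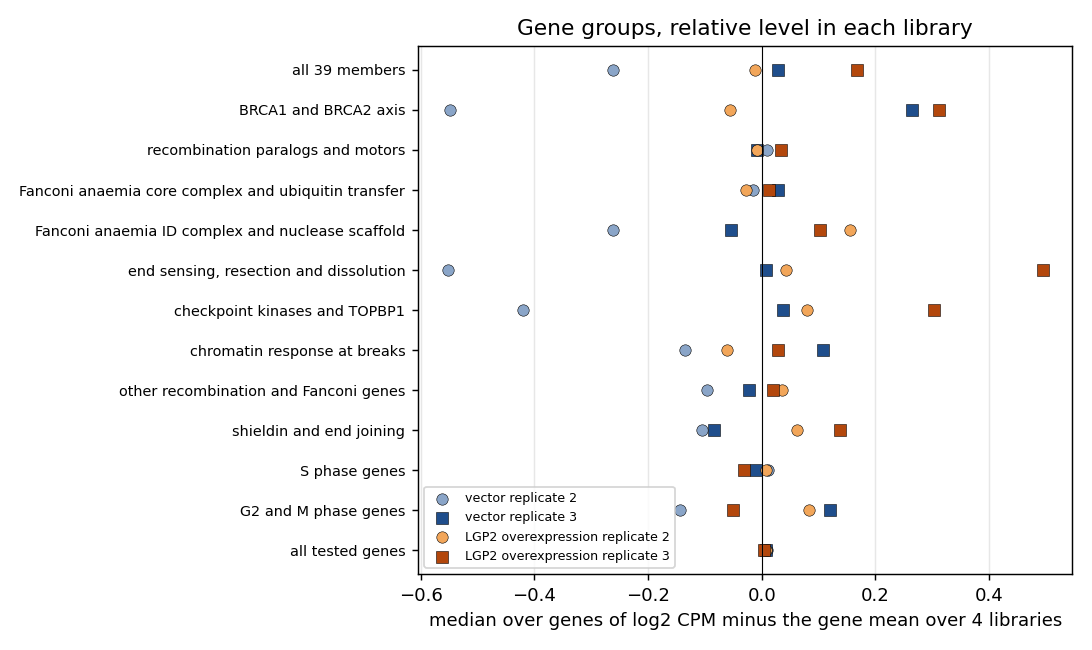
Relative level of gene groups in each library. The horizontal axis is the median over genes of log2 CPM after subtraction of each gene's 4-library mean, each row is a group of genes and each point is 1 library. For all 39 members vector replicate 2 sits at -0.26, and the other libraries sit between -0.01 and 0.17.

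**Figure D2:**
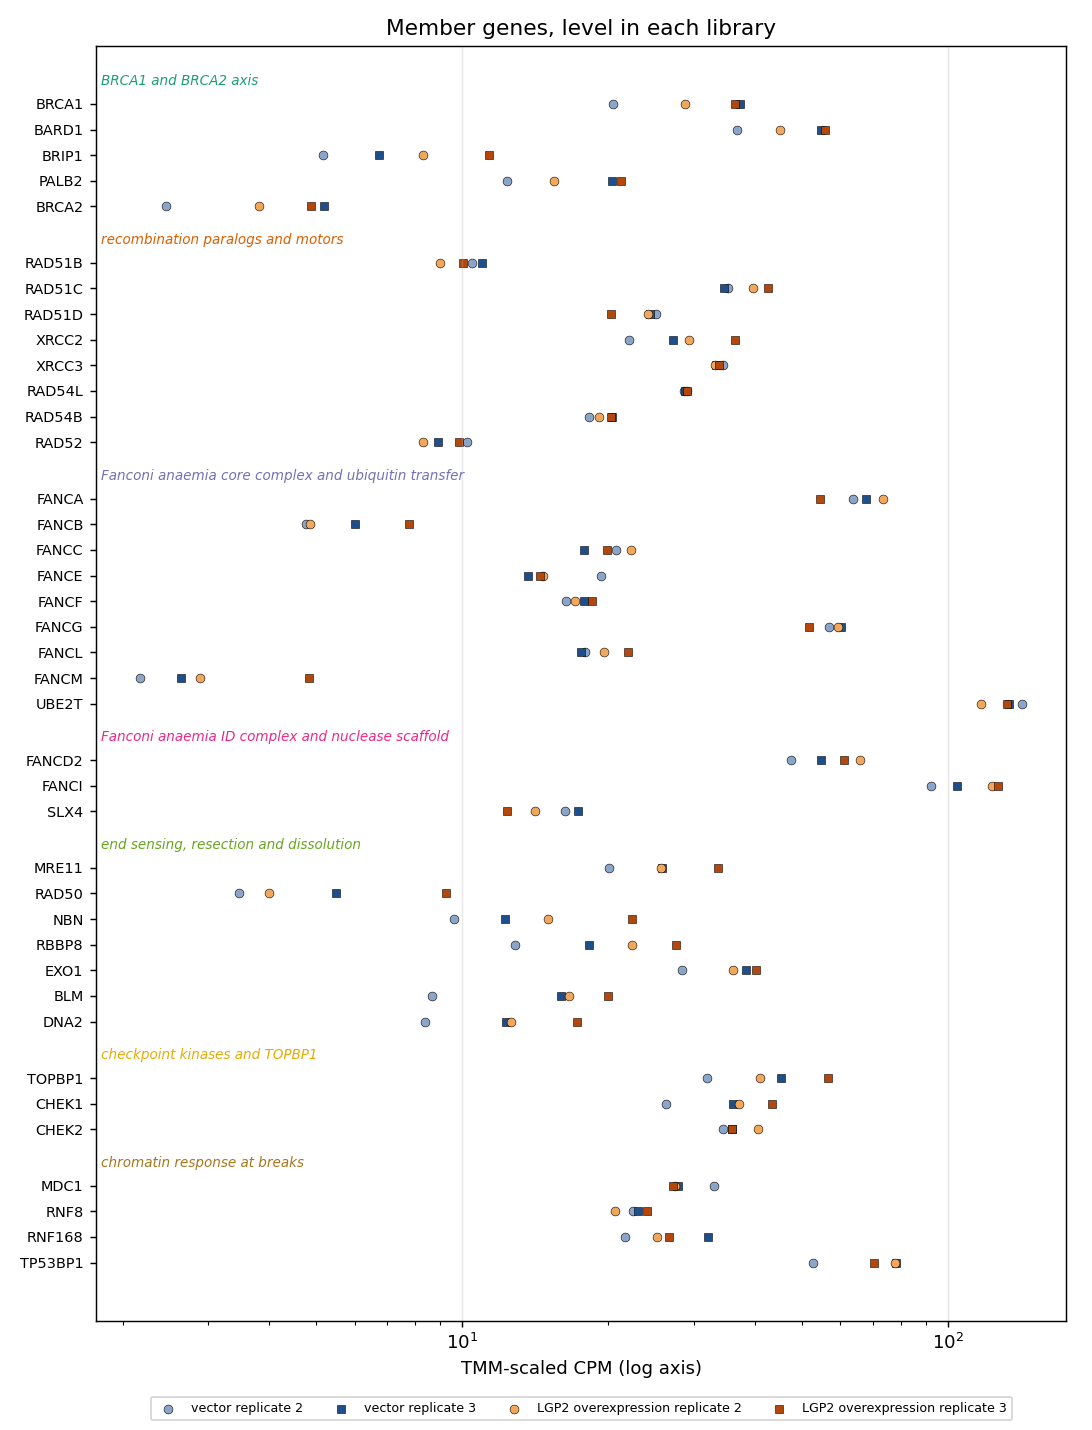
Level of each member in each library, by role. The horizontal axis is TMM-scaled CPM on a log axis, circles are replicate 2 and squares replicate 3, in blue for vector and orange for LGP2 overexpression. The vector and LGP2 points overlap in 21 of the 39 genes, and in 11936 of the 17863 tested genes.

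The genes that sense and resect broken ends all had positive log2 fold changes, and 3 of the 7 overlapped between groups, as did 11936 of the 17863 tested genes. Their median was 0.57, and it was 0.28 without vector replicate 2, 0.29 without LGP2 replicate 3, 0.74 without LGP2 replicate 2 and 0.93 without vector replicate 3. NBN, which recruits the ATM kinase to breaks (chromosome 8, 89933336 to 90003228, minus strand, GENCODE 29 on GRCh38), was at 9.61 and 12.2 CPM in the vector libraries and 15.0 and 22.4 CPM in the LGP2 libraries. Both LGP2 libraries were above both vector libraries, and LGP2 replicate 3 stood highest. Its log2 fold change came to 0.78, with SE 0.24 and a 95% interval of 0.24 to 1.31 (unadjusted p = 0.00857, adjusted p = 0.998 by edgeR). It was 0.46 without LGP2 replicate 3 and between 0.61 and 1.03 without any other library. RBBP8, the nuclease partner that begins resection (chromosome 18, 22798261 to 23026488, plus strand), was at 12.8 and 18.3 CPM in the vector libraries against 22.3 and 27.6 CPM with LGP2. Its groups did not overlap, and the log2 fold change was 0.68 (SE 0.23, unadjusted p = 0.0122, adjusted p = 0.998 by edgeR), or 0.45 without vector replicate 2.

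Of the other subunits of the NBN complex, RAD50 had a wider spread than NBN (SE 0.39 against 0.24), and MRE11 did not (SE 0.21). The nuclease MRE11 was at 20.1 and 25.8 CPM in the vector libraries against 25.7 and 33.7 CPM with LGP2. RAD50, the coiled-coil ATPase that tethers ends, was at 3.47 and 5.48 CPM in the vector libraries against 4.0 and 9.25 CPM with LGP2. For both genes LGP2 replicate 2 fell among the vector libraries. The log2 fold change of RAD50 was 0.57 (SE 0.39), and it was -0.16 without LGP2 replicate 3, so its sign rested on that library. Per kilobase of exon RAD50 was the lowest of the 3 subunits in every library, at 0.355 to 0.946 CPM per kb, against 2.61 to 4.38 for MRE11 and 1.56 to 3.64 for NBN.

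In the genes of long-range resection vector replicate 2 was the lowest library. BLM, the helicase lost in Bloom syndrome, was at 8.65 and 15.9 CPM in the vector libraries against 16.6 and 19.9 CPM with LGP2. The nuclease and helicase DNA2 was at 8.37 and 12.3 CPM in the vector libraries against 12.6 and 17.3 CPM with LGP2. In both genes the groups were separated, but vector replicate 3 lay close under LGP2 replicate 2. The log2 fold changes were 0.57 (SE 0.27) for BLM and 0.53 (SE 0.25) for DNA2, and without vector replicate 2 they shrank to 0.20 and 0.28. The exonuclease EXO1 was at 28.3 and 38.5 CPM in the vector libraries against 36.1 and 40.3 CPM with LGP2, with overlapping groups and a log2 fold change of 0.19 (SE 0.19).

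All 5 genes of the BRCA1 and BRCA2 axis were above 0. Of these, 4 overlapped between the groups, as did 11936 of the 17863 tested genes. BRIP1, a helicase that binds BRCA1 (chromosome 17, 61681266 to 61863521, minus strand), was at 5.17 and 6.75 CPM in the vector libraries against 8.30 and 11.4 CPM with LGP2. It was the only gene of the 5 whose LGP2 libraries were both above both vector libraries (background 16.7% of tested genes). Its log2 fold change was 0.72 (SE 0.26, 95% interval 0.14 to 1.30, unadjusted p = 0.0193, adjusted p = 0.998 by edgeR), and between 0.48 and 0.93 when any 1 library was left out.

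In the rest of the axis vector replicate 2 was the low library. BRCA1, a ubiquitin ligase and scaffold (chromosome 17, 43044295 to 43170245, minus strand), was at 20.5 and 37.4 CPM in the vector libraries against 28.8 and 36.5 CPM with LGP2. BRCA2, a breast and ovarian cancer susceptibility gene that acts after resection, was at 2.45 and 5.19 CPM in the vector libraries against 3.82 and 4.89 CPM with LGP2. PALB2, the bridge between BRCA1 and BRCA2, was at 12.4 and 20.4 CPM in the vector libraries against 15.5 and 21.2 CPM with LGP2. In BRCA1 and BRCA2 the vector pair enclosed both LGP2 libraries, and in PALB2 it enclosed LGP2 replicate 2. BARD1, the ligase partner of BRCA1, was at 36.8 and 54.8 CPM in the vector libraries against 45.1 and 56 CPM with LGP2. The log2 fold changes of these 4 genes were 0.14 to 0.19, and without vector replicate 2 all 4 were negative, at -0.20 for BRCA1, -0.12 for BARD1, -0.15 for PALB2 and -0.25 for BRCA2. BARD1 and PALB2 were also negative without LGP2 replicate 3, at -0.02 and -0.08, as was BRCA1 at -0.01.

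Levels within the axis were unequal per length. BARD1 was at 6.06 to 9.23 CPM per kb over the 4 libraries and BRCA1 at 2.23 to 4.07, so the ranges did not overlap. PALB2 was at 2.60 to 4.48 CPM per kb, a range that overlapped that of BRCA1. BRCA2 had the lowest mean level per length of the 39 members, at 0.200 to 0.423 CPM per kb, overlapping FANCM (0.256 to 0.570), which was below it in vector replicate 3, and RAD50. These lengths merge every annotated exon of a gene and may exceed the transcripts made in these cells.

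**Figure D3:**
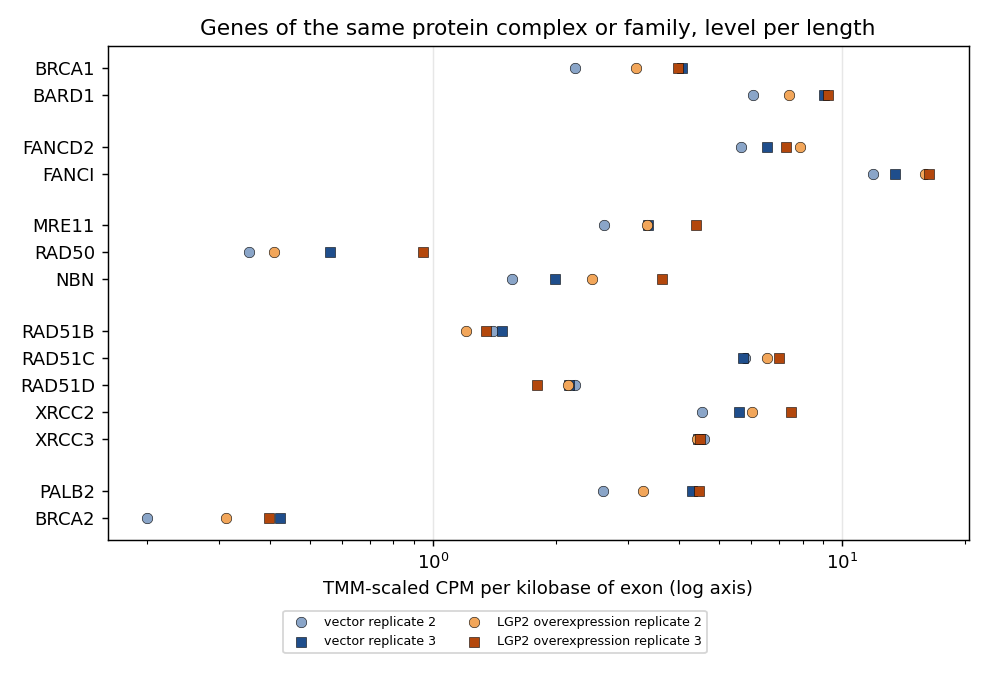
Level per length of genes whose proteins work in the same complex or family. The horizontal axis is TMM-scaled CPM per kilobase of merged exons on a log axis, and each point is 1 library. BRCA2 lies below PALB2, and RAD50 below MRE11 and NBN, in all 4 libraries.

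The recombination paralogs had values on both sides of 0. These 5 related proteins assemble into 2 complexes. XRCC2 was at 22.0 and 27.2 CPM in the vector libraries against 29.3 and 36.4 CPM with LGP2, a log2 fold change of 0.42 (SE 0.20, unadjusted p = 0.0615, adjusted p = 0.998 by edgeR), or 0.25 without LGP2 replicate 3. RAD51C, the paralog found in both complexes, was at 35.2 and 34.7 CPM in the vector libraries against 39.7 and 42.6 CPM with LGP2 (log2 fold change 0.24, SE 0.16). In both of these genes the LGP2 libraries were above the vector libraries. RAD51B was at 10.5 and 11 CPM in the vector libraries against 8.99 and 10.0 CPM with LGP2 (log2 fold change -0.17, SE 0.21). RAD51D was at 25.1 and 24.4 CPM in the vector libraries against 24.2 and 20.3 CPM with LGP2 (log2 fold change -0.15, SE 0.19). In these the LGP2 libraries were both lower, though by less than 1 SE. XRCC3 was at 34.4 and 33.3 CPM in the vector libraries against 33.2 and 33.8 CPM with LGP2, a log2 fold change of -0.02 (SE 0.17) whose sign turned under library-total scaling (0.03).

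The motor proteins of recombination and RAD52 had log2 fold changes within -0.08 and 0.03. RAD54L, which remodels the joint between the DNA molecules, was at 28.6 and 28.8 CPM in the vector libraries against 29 and 29.1 CPM with LGP2 (log2 fold change 0.02, 95% interval -0.37 to 0.40). Its relative RAD54B had a log2 fold change of 0.03 (SE 0.19), and RAD52, a single-strand annealing protein, one of -0.08 (SE 0.22). Per length RAD51C (5.71 to 7.02 CPM per kb) overlapped XRCC2 (4.53 to 7.5) and lay above XRCC3 (4.42 to 4.58), RAD51D (1.80 to 2.22) and RAD51B (1.2 to 1.47), and the last 3 did not overlap.

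The Fanconi anaemia core complex and its ubiquitin-conjugating enzyme had 5 genes above 0 and 4 below, and their median was 0.06. FANCM, the DNA translocase that anchors the complex, was at 2.17 and 2.63 CPM in the vector libraries against 2.88 and 4.82 CPM with LGP2. Its LGP2 libraries were both higher, with LGP2 replicate 3 well above the rest, and the log2 fold change was 0.68 (SE 0.36), or 0.26 without that library. FANCL, the ubiquitin ligase subunit, had non-overlapping groups at a log2 fold change of 0.23 (SE 0.19). FANCE, a subunit that contacts FANCD2, was at 19.3 and 13.6 CPM in the vector libraries against 14.6 and 14.5 CPM with LGP2. Vector replicate 2 alone was high, and the log2 fold change of -0.18 (SE 0.22) became 0.10 without it. FANCA, FANCB, FANCC, FANCF and FANCG lay between -0.07 and 0.23, all with overlapping groups.

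UBE2T, the conjugating enzyme that passes ubiquitin to FANCD2 and FANCI, was the highest member per length, at 70.8 to 86.2 CPM per kb. It was at 142 and 134 CPM in the vector libraries against 117 and 132 CPM with LGP2, lower in both LGP2 libraries by a log2 fold change of -0.15 (SE 0.14). FANCG (14.3 to 16.6 CPM per kb) and FANCI (11.9 to 16.3) came next and overlapped each other. All other members had mean levels under 10 CPM per kb.

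The targets of that ubiquitin transfer were among the more evenly separated genes. FANCI (chromosome 15, 89243949 to 89317261, plus strand) was at 92.5 and 104 CPM in the vector libraries against 124 and 127 CPM with LGP2, a log2 fold change of 0.35 (SE 0.14, 95% interval 0.04 to 0.66, unadjusted p = 0.0322, adjusted p = 0.998 by edgeR). FANCD2 was at 47.4 and 54.8 CPM in the vector libraries against 66.0 and 61.1 CPM with LGP2, a log2 fold change of 0.31 (SE 0.15). Both LGP2 libraries exceeded both vector libraries in each gene, and leaving out any 1 library kept the log2 fold change between 0.26 and 0.44 for FANCI and between 0.21 and 0.42 for FANCD2. SLX4, the nuclease scaffold, was at 16.3 and 17.3 CPM in the vector libraries against 14.1 and 12.4 CPM with LGP2. Both LGP2 libraries were below the vector pair, with the lowest log2 fold change of the members, -0.34 (SE 0.19, unadjusted p = 0.105).

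Checkpoint genes were above 0 and chromatin response genes were spread around it. CHEK1, the kinase that halts the cycle when replication stalls, was at 26.3 and 36.1 CPM in the vector libraries against 37.2 and 43.4 CPM with LGP2, a log2 fold change of 0.37 (SE 0.20) that was 0.16 without vector replicate 2. TOPBP1, which activates the ATR kinase, was at 32.0 and 45.4 CPM in the vector libraries against 41.1 and 56.7 CPM with LGP2, with overlapping groups and a log2 fold change of 0.34 (SE 0.22) that was 0.09 without LGP2 replicate 3. CHEK2, the kinase downstream of ATM, was at 0.12 (SE 0.17). Of the chromatin genes MDC1, an adaptor that reads phosphorylated histone H2AX, was at 33.0 and 27.8 CPM in the vector libraries against 27.5 and 27.1 CPM with LGP2 (log2 fold change -0.15, SE 0.18). The ubiquitin ligases RNF8 and RNF168 were near 0, RNF8 at -0.03 (SE 0.19) and RNF168 at -0.05 (SE 0.22) on the log2 scale. TP53BP1, which limits resection, was at 52.8 and 78.4 CPM in the vector libraries against 77.9 and 70.4 CPM with LGP2, again with vector replicate 2 the low library (log2 fold change 0.18, SE 0.19).

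**Figure D4:**
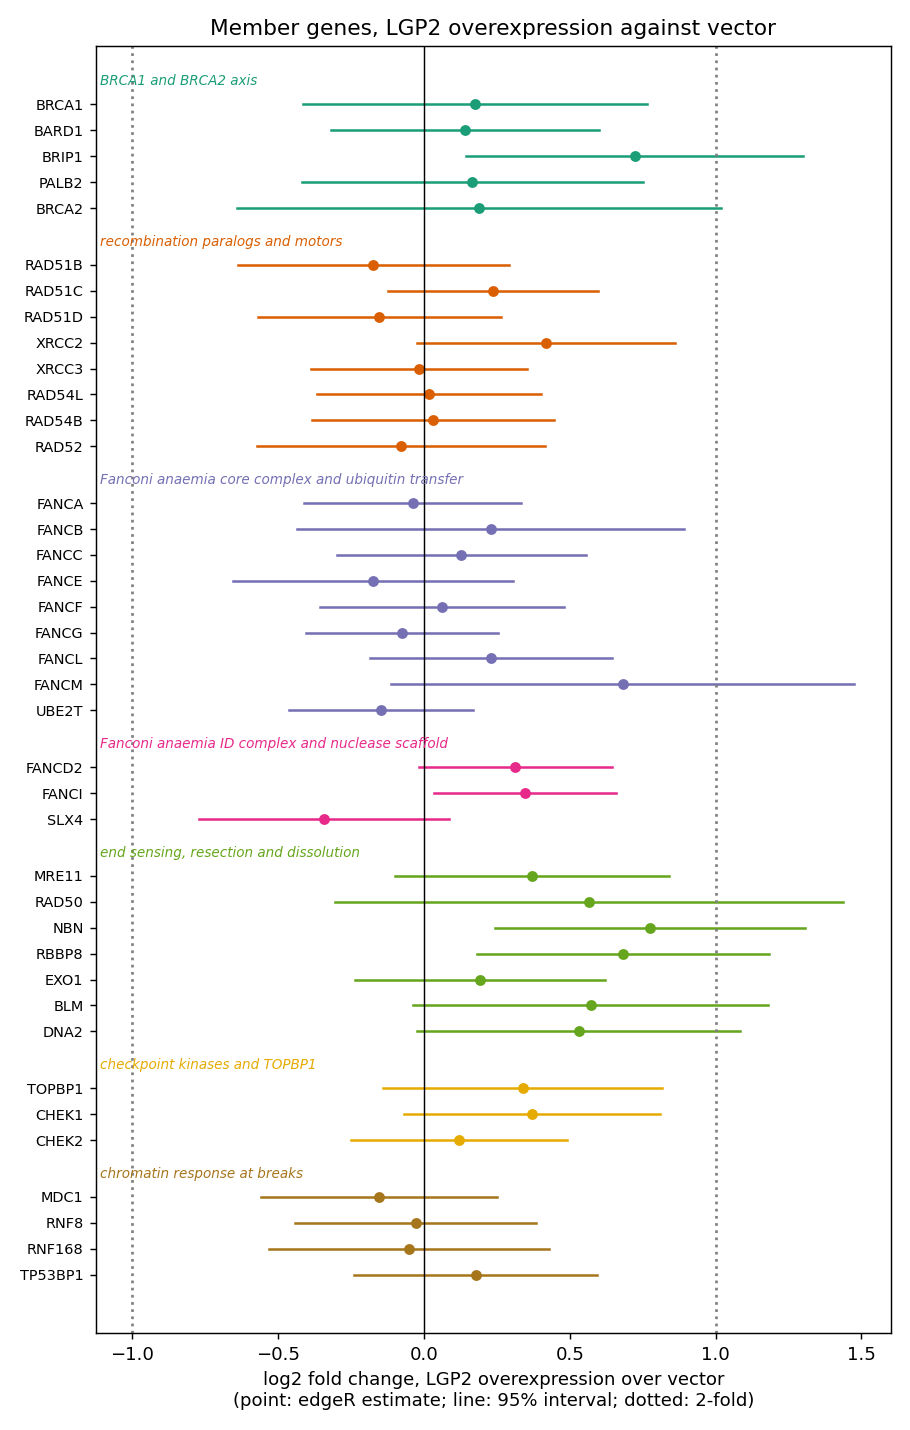
Log2 fold change of each member, LGP2 overexpression over vector, by role. Points are edgeR estimates, lines are 95% intervals and dotted lines mark a 2-fold change. The intervals of NBN, RBBP8, BRIP1 and FANCI lie above 0 before any adjustment, and no interval lies below 0.

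Base composition moved with these differences. The median GC content of the members' longest transcripts was 42.8%, against 48.6% over all tested genes, and 30 members lay below that median. Across the 39 members Spearman's rho between GC content and log2 fold change was -0.69, and across 17477 tested genes with a known GC content it was -0.34. Genes within a library share its depth and composition, so this is a description. With the tested genes in 3 equal bins of GC content, the 25 members at 44.3% or lower had a median log2 fold change of 0.31 with 22 above 0. All tested genes of that bin had a median of 0.15, with 69.7% above 0. The 5 members of the most GC-rich bin were all below 0, at a median of -0.07, where all tested genes of the bin had a median of -0.10 and 29.8% were above 0.

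The vector libraries also differed by GC content. From the GC-poor to the GC-rich bin, the median log2 difference of vector replicate 3 over vector replicate 2 was 0.15, -0.01 and -0.09 for all tested genes. For the members it was 0.36, 0.01 and 0.08, highest in the GC-poor bin but not falling from the middle bin to the last. In a fit with GC and length offsets 25 of 39 members were above 0, and their median log2 fold change was 0.07. There NBN was at 0.52, RBBP8 at 0.50, BRIP1 at 0.47, FANCI at 0.22 and BRCA2 at -0.05. The fit called 0 members. Its offsets were estimated in every library without regard to group. They therefore also take out group differences that move with GC content or length, whatever their source. Whether base composition, or the library differences that move with it, produced the members' differences was not tested.

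**Figure D5:**
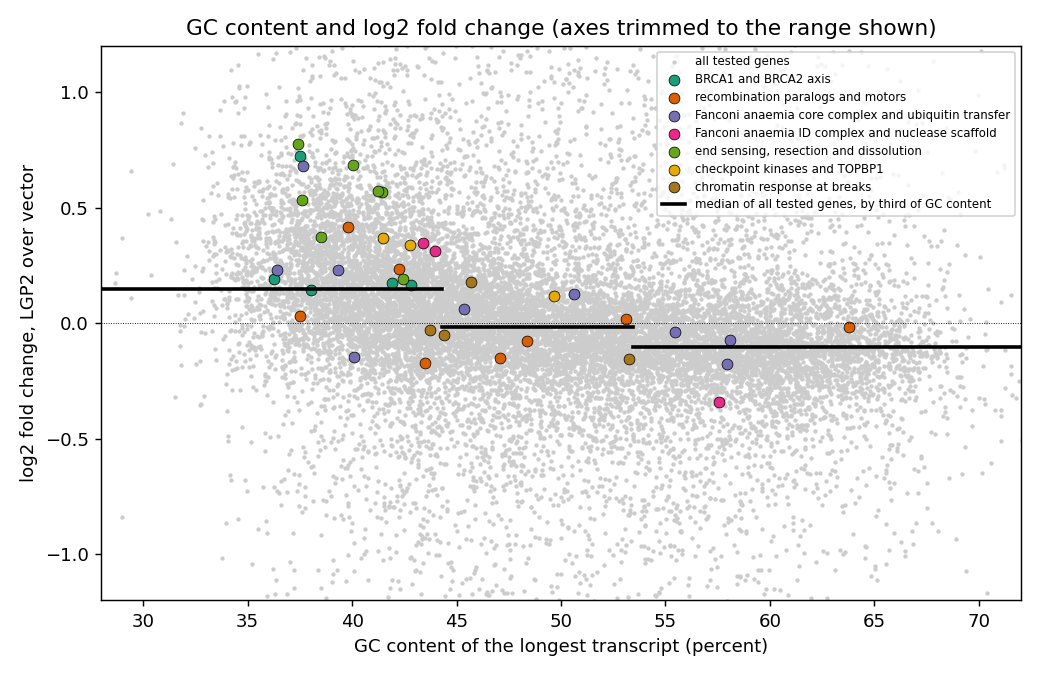
GC content of the longest transcript (horizontal, percent) against log2 fold change (vertical) for the members, coloured by role, over all tested genes in grey. Black lines are the medians of all tested genes in 3 equal bins of GC content, at 0.15, -0.02 and -0.10, and the members follow the same downward course.

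Exon overlaps limit the reading of some genes, since the use of strand in counting is not given in the sources used here. In GENCODE 29, 8 members share an exon with another gene on the same strand. They are BRCA1 (AC060780.1), CHEK1 (STT3A), RAD50 (AC116366.3), RBBP8 (MIR4741), RAD54B (FSBP), RAD51D (RAD51L3-RFFL and RF00006), RAD52 (AC004803.1) and RNF8 (RN7SL273P). Another gene's exon lies on the opposite strand in 19 members, including FANCI (POLG), FANCD2 (FANCD2OS), FANCA (ZNF276) and MRE11 (ANKRD49). Values of these genes are uncertain to that extent.

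Genes of the same pathways outside the 39 were centred near 0. Of 43 further recombination and Fanconi genes 42 were tested, and 21 lay above 0 and 21 below. Their median was 0.02 on the log2 scale, and 0 were called by edgeR. At an unadjusted p under 0.05 by edgeR, 7 were higher and 0 lower, where the background was 3.00% and 1.46% of tested genes. In 15 both LGP2 libraries exceeded both vector libraries (background 16.7%), and in 8 both were below (background 16.5%). BRCC3, a deubiquitinase of the BRCA1-A complex, was at 12.5 and 13.3 CPM in the vector libraries against 19.0 and 26.1 CPM with LGP2 (log2 fold change 0.80, SE 0.21, adjusted p = 0.938 by edgeR). FIGNL1, an ATPase of recombination, was at 0.52 (SE 0.19). RPA3, a subunit of the single-strand binding protein RPA, was at -0.28 (SE 0.14), and FAAP20, a core complex partner, at -0.26 (SE 0.16).

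Of 15 shieldin and end-joining genes 11 were above 0, with a median of 0.13. POLQ, the polymerase of microhomology-mediated joining, was at 11.9 and 17.3 CPM in the vector libraries against 21.5 and 21.7 CPM with LGP2 (log2 fold change 0.57, SE 0.22), and XRCC4, a partner of DNA ligase IV, was at 0.36 (SE 0.20). The repair scaffold XRCC1 was at -0.17 (SE 0.20) and SHLD3 at -0.23 (SE 0.42). None of the 15 was called by edgeR. At an unadjusted p under 0.05, 1 was higher (background 3.00%) and 0 lower (background 1.46%).

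The cell cycle lists were also centred near 0. Of 20 S phase genes 8 lay above 0 (median -0.03 on the log2 scale), and of 20 G2 and M phase genes 12 did (median 0.03). Neither list had a gene called by edgeR. At an unadjusted p under 0.05, 2 S phase genes and 1 G2 and M phase gene were higher (background 3.00%), and 0 lower (background 1.46%). Cyclin E2 (CCNE2) was at 0.62 (SE 0.22), RRM1, a subunit of ribonucleotide reductase, at 0.32 (SE 0.14), MCM2 of the replicative helicase at -0.21 (SE 0.16) and thymidylate synthase (TYMS) at -0.13 (SE 0.14). The spindle motor KIF11 was at 0.59 (SE 0.19), the topoisomerase TOP2A at 0.41 (SE 0.25), and the mitotic kinases PLK1 and AURKB at -0.19 (SE 0.15) and -0.18 (SE 0.15). Summed over the list, S phase genes ran from 3079 to 3187 CPM over the 4 libraries. Summed G2 and M phase genes were at 2462 CPM in vector replicate 2, 2825 in vector replicate 3, and 2866 and 2556 with LGP2. Median levels in log2 CPM relative to each gene's mean are given here for replicates 2 and 3 in turn. G2 and M phase genes were at -0.14 and 0.12 in the vector libraries and at 0.08 and -0.05 with LGP2. The members were at -0.26 and 0.03 in the vector libraries and at -0.01 and 0.17 with LGP2. The part of the cell cycle in the members' levels was not tested.

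Promoter sequence was examined because many recombination genes are transcribed in S phase by E2F factors. RefSeq promoter windows (GRCh38.p14, 250 bases before to 50 after a start) matched 35 members by symbol. The E2F cores TTCCCGC and TTGGCGC were searched on both strands, and the reverse of the second can share letters with a CCAAT box. At least 1 core was present in 17 of the 35 members (48.6%), in 17.3% of the tested genes with a window, and in 9.23% of all windows of this length. The members with a core had a median log2 fold change of 0.13 and the 18 without one a median of 0.18. CCAAT was found in 45.7% of members and 43.1% of tested genes, and the cell cycle element CHR (TTTGAA or TTCGAA, both strands) in 11.4% and 15.6%. A match is a run of letters and does not show that a factor binds.

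The windows below, each 5′ to 3′ on the gene's strand with E2F cores in capitals, show a core close to the start in genes with different values. They are BRIP1 (chr17:61863479-61863778, minus strand), BLM (chr15:90717096-90717395, plus strand), FANCD2 (chr3:10026187-10026486, plus strand) and the start of BRCA1 in chr17:43125315-43125614, minus strand. BLM holds 3 cores and the others 1 each.
BRIP1: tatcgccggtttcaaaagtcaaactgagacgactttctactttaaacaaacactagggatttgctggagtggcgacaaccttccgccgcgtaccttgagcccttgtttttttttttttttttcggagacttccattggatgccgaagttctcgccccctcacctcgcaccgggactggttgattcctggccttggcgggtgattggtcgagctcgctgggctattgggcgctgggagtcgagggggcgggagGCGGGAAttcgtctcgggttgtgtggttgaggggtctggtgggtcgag
BLM: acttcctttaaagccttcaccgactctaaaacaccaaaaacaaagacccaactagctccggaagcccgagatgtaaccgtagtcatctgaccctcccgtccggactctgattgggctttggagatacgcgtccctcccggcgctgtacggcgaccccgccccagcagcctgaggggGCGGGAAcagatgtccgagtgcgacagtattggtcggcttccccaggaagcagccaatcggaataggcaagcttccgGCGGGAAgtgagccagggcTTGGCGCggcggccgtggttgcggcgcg
FANCD2: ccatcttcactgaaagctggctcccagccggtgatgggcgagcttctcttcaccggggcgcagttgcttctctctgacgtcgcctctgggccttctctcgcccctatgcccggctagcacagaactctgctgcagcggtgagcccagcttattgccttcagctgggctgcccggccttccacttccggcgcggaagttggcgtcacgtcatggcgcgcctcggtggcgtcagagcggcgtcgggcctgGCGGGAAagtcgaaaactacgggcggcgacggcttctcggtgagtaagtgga
BRCA1: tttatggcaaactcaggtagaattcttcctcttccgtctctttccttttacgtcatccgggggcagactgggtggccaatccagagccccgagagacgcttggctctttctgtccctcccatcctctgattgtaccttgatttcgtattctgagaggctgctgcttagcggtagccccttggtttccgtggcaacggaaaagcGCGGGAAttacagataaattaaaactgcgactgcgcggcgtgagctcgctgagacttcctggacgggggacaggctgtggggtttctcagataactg
Of these 4 genes BRIP1, BLM and FANCD2 had LGP2 libraries above the vector libraries (background 16.7% of tested genes), and BRCA1 did not. The windows are examples and link no core to a fold change. MDC1 and RAD51D also hold a core, and their LGP2 libraries were both below the vector libraries.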

How the data were processed

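Per the labels' protocols, RNA was extracted by the Trizol method and sequenced after SMARTER mRNA-Seq library preparation. For each of 4 libraries the authors deposited whole-number counts under human gene symbols. The submitters' processing notes name mm10, a mouse build. Not given in the sources used here: aligner, counter, annotation and strand use. Counts were tested with edgeR 4.0.16 (R 4.3.3) by glmQLFTest, with TMM scaling, filterByExpr and no covariate, across all genes. Benjamini-Hochberg adjustment covered the 17863 tested genes, and those under 0.05 were called. Standard errors come from the F statistic. Log2 CPM used a prior count of 2.

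Symbols were matched to GENCODE 29 (GRCh38), 19831 exactly, 461 through another symbol, and 621 without a match. That annotation may not be the one used for counting. All 39 members matched, and 97.8% of tested genes had a GC content and a length.

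Alternatives were other scalings and filters, DESeq2 1.42.0, limma 3.58.1 (voom), the replicate number as a block, GC and length offsets (natural splines, 5 degrees of freedom), removal of genes sharing exons, a stricter threshold and leaving out each library. Such a leave-out fit keeps the same tested genes and takes its spread from the group that still has 2 libraries. The fit was also run on simulated counts whose spread was taken from these libraries. That run was a check of the code and required only that large planted changes were found. It says nothing about power at changes as small as those of the members.

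Members and lists were chosen with earlier results of these data known. Values in each library are given for members with an unadjusted p under 0.05, the 5 highest and 5 lowest log2 fold changes, the highest and lowest level per length, and BRCA1, BRCA2, PALB2, FANCD2, FANCI, CHEK1 and the recombination paralogs (RAD51B, RAD51C, RAD51D, XRCC2 and XRCC3). Of the other lists, the 2 genes per direction with the smallest p are named, and 1 gene of the further recombination list is not reported here. BARD1, RAD54L, MRE11, RAD50, EXO1, DNA2, TOPBP1 and TP53BP1 were added after their values were seen. Counting error is small at these depths, and the number of libraries, 2 per group, limits the precision.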

Additional observations from a re-analysis of the deposited data

How the results depend on the processing

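No member was called in any setting run, and the count of members above 0 was 23 to 30, or 22 of 31 without genes sharing exons. The genes called over the whole table (3) varied more: 1 with no filter, 1 without genes sharing exons, 6 with at least 5 CPM in 2 libraries, 6 by limma-voom, 8 with the replicate block, 23 by DESeq2, and 2 to 188 when 1 library was left out, the most without vector replicate 3. The members' median log2 fold change of 0.17 was 0.023 to 0.41 when 1 library was left out, highest without vector replicate 3, and 0.07 with GC and length offsets. Signs turned for BRCA2 with those offsets (-0.054), and for XRCC3 with them (0.042) and with library totals (0.030). With 1 library left out BRCA1 ran from -0.20 to 0.67, PALB2 from -0.15 to 0.57, BRCA2 from -0.25 to 0.83, XRCC3 from -0.040 to 0.0057, and FANCE from -0.40 to 0.10. The cause was not tested. The other members among the 20 that the naming rule picks kept their sign in each setting that tested them (FANCM was not tested at 5 CPM, nor RAD51D, RBBP8 and CHEK1 with shared exons left out). Of the members added, RAD50, BARD1, EXO1 and TP53BP1 turned negative without 1 of the libraries.

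Over all genes the deviations of same-numbered libraries had a correlation of 0.03, although replicate 3 was the higher library in most members of both groups. With the replicate block the members' median was 0.20 with 27 above 0, and 10 in place of 4 had an unadjusted p under 0.05. DESeq2 gave 6 and limma-voom 7. The share of all tested genes under that threshold was not computed for these fits, so the counts cannot be set against a background. The limits are 2 libraries per group, the GC gradient, exon overlaps and the unstated strand use. Leave-out fits hold a single library in one group.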
